A study of Mus musculus with 24 samples.

Results

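The genes described here are the WNT signalling components of the mouse fetal gonad other than Wnt4. They are 41 genes of the 32040 in the deposited tables, taken by name: 18 WNT ligands, 10 Frizzled receptors, 9 secreted antagonists (Sfrp1, Sfrp2, Sfrp4, Sfrp5, Frzb, Dkk1, Dkk2, Dkk3 and Wif1) and 4 co-receptors (Lrp5, Lrp6, Ror1 and Ror2). All 41 were found, and 30 of them were among the 16190 genes with enough counts to be tested. RNA was measured in bulk in 24 libraries of sorted supporting cells, the somatic cells that become the nursing cells of the germ line. The XX libraries hold pre-granulosa cells of the Tg(Enh8-mCherry) mouse line, and the XY libraries hold Sertoli cells of the SOX9-IRES-GFP line, in which the GFP used for sorting is translated from the Sox9 transcript. Each sex was sampled at 4 stages of embryonic development, from E11.5 over E12.5 and E13.5 to E15.5 (E for embryonic day), with 3 libraries in each of the 8 groups. Sex, mouse line and fluorophore change together between the XX and XY libraries and cannot be told apart. The labels do not say whether the 3 libraries of a group came from separate litters or sorts, so the p-values measure the spread between these libraries, which may be technical.

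WNT proteins are lipid-modified secreted signals. A Frizzled receptor binds the ligand on the receiving cell together with LRP5 or LRP6, which stabilises beta-catenin, or with ROR1 or ROR2, which act in beta-catenin-independent signalling. Secreted antagonists work outside the cell: SFRP proteins, FRZB and WIF1 bind the ligand, while DKK1 and DKK2 bind the LRP co-receptors. In the fetal ovary, beta-catenin signalling downstream of RSPO1 and WNT4 is known to promote pre-granulosa fate, and its forced activation disturbs testis formation.

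The libraries held 11275251 to 37256881 counts. Defining markers fitted the labels for sex from E12.5: Amh, the anti-Müllerian hormone of Sertoli cells, was at 3826 to 5117 CPM (counts scaled to library size) in XY libraries of E12.5 and later, and at most 0.909 CPM in XX libraries of those stages. It was at 0.324 to 7.86 CPM in XX E11.5. Foxl2, a pre-granulosa transcription factor, was at 2.62 to 45.8 CPM in XX libraries and at most 0.261 CPM in XY libraries. The list of 8 pre-granulosa markers that holds Foxl2 summed to 328 to 1008 CPM in XX E11.5 and to 203 to 285 CPM in XY E11.5. Lgr5, on the same list, went the other way at that stage, with means of 40.8 CPM in XX and 190 CPM in XY. At E11.5, Amh was at 16.0 to 39.5 CPM in XY. For XX E13.5 replicate 1 the title names E13.5 and another field an earlier stage, and it was kept at E13.5. The XX E11.5 libraries differed most among themselves. The 10 interstitial and stromal markers summed to 3329 CPM in XX E11.5 replicate 3, against 1092 in replicate 1 and 537 in replicate 2, with all 10 markers above 1 CPM in each. Erythroid markers summed to 3191 to 25592 CPM in XX E11.5 and to 10.3 to 22.5 CPM in XY E11.5. The level of Foxl2 among these libraries was 35.2 CPM in replicate 2, against 2.62 and 4.73 CPM in replicates 1 and 3. Erythroid markers summed to 504 to 1187 CPM in XX E12.5 and to 16.1 to 30.2 CPM in XY E12.5. Immune markers there summed to 30.1 to 34.1 and 0.187 to 1.42 CPM. Surface epithelium markers summed to 744 to 793 CPM in XX E15.5 and to 112 to 124 CPM in XY E15.5. Germ cell sums overlapped at E12.5 (4.41 to 5.28 CPM in XX, 4.58 to 5.99 CPM in XY). The part of these cells in the differences between the sexes was not tested. In bulk RNA, fewer cells of a type and less RNA per cell cannot be told apart.

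Promoter sequence, from 250 bases before to 50 after the transcription start, was at hand for 28 of the 41 members (RefSeq, GRCm38.p6, the same assembly as the mm10 build of the submitters' processing notes). The 5 shown are those of Wnt6, the ligand with the highest level in all 8 groups, at chr1:74771642-74771941 on the plus strand, of Wnt9a, a ligand higher in XX at all stages, at chr11:59306680-59306979 on the plus strand, of Fzd9 and Frzb, a receptor and an antagonist higher in XY at all stages, at chr5:135250998-135251297 and chr2:80447347-80447646, both on the minus strand, and of Dkk1, at chr19:30549447-30549746 on the minus strand, chosen because 2 motif matches lie in it. Each is printed 5′ to 3′ along the gene's own strand, and capitals mark matches on either strand to the TCF/LEF letters CTTTGA.
Wnt6: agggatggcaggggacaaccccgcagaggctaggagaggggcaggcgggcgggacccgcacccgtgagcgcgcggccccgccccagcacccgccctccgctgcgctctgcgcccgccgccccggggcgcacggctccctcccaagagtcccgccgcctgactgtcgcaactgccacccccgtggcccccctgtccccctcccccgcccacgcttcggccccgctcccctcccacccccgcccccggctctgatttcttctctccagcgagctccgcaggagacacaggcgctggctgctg
Wnt9a: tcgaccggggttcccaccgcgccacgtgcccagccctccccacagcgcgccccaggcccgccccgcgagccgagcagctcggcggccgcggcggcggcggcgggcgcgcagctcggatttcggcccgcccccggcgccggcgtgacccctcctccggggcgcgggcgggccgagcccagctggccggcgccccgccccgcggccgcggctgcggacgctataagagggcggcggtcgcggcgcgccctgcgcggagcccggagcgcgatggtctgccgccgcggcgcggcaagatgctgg
Fzd9: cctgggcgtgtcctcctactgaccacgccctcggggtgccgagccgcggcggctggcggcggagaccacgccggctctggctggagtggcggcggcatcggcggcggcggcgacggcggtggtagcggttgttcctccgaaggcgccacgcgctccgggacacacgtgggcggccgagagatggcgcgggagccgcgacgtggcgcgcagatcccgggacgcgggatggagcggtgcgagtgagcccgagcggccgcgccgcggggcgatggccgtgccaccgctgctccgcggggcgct
Frzb: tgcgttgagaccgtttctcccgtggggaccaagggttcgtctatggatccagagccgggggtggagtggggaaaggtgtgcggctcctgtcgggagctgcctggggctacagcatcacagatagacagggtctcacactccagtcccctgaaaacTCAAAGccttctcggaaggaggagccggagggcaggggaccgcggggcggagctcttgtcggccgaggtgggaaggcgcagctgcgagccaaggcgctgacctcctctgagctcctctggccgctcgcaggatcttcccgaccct
Dkk1: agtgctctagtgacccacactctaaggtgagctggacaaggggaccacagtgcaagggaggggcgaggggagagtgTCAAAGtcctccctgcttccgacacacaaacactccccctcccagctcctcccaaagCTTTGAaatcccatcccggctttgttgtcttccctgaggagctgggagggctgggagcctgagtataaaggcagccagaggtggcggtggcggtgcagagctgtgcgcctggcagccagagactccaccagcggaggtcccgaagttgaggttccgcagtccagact

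The search covered the TCF/LEF letters CTTTGA, the SOX letters ACAATG, the nuclear receptor NR5A letters AAGGTCA and the GATA letters AGATAA on both strands. Of the 28 members, 5 held the TCF/LEF letters in the first promoter listed (Wnt11, Fzd1, Frzb, Dkk1 and Ror1), against 16% of the 32851 mouse promoters of the same length. These 5 do not share a direction. In the comparisons below, Wnt11 was higher in XX, as were Fzd1 at E12.5 and Dkk1 at E12.5 and E13.5. Frzb was higher in XY, and Ror1 in neither sex. The SOX letters were in 2 members against 12.6% of all promoters, the GATA letters in 3 against 11.2%, and the NR5A letters in none of the 28 against 4.72%. The promoters of Wnt6, Wnt9a and Fzd9 held none of the 4 motifs, and their GC content was 76.7%, 83.3% and 78%, against 64.7% for Frzb and 60.7% for Dkk1. A match is a run of letters, not a measured binding site.

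Several ligand genes lie next to each other in the mouse genome, with 4 pairs within 100 kb by RefSeq. Wnt6 (chr1:74754342-74785322) and Wnt10a (chr1:74792019-74804176) are separated by 6697 bases, Wnt9a (chr11:59306849-59333552) and Wnt3a (chr11:59248036-59290751) by 16098 bases, and Wnt1 and Wnt10b on chromosome 15 by 11651 bases, while Wnt3 and Wnt9b on chromosome 11 overlap. In the pairs Wnt1 with Wnt10b and Wnt3 with Wnt9b both genes were low, at most 0.11, 0.36, 0.25 and 1.02 TPM in any library. The members of the other pairs did not have like levels. Wnt3a never exceeded 0.06 TPM (a level scaled for gene length and library size) while its neighbour Wnt9a reached 41.5 TPM, and Wnt6 reached 1034 TPM in XY E13.5 where Wnt10a stayed at 0.54 to 0.65 TPM.

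Levels across the 41 members were dominated by a single ligand. Wnt6 made up 82.9% of the summed ligand TPM in XX E11.5 and 87.0% to 87.3% in the later XX groups, 87.1% in XY E11.5, and 98.3%, 98.5% and 98.2% in XY E12.5, E13.5 and E15.5. Wnt4 is not a member and is not in this sum. At E15.5 Wnt4 averaged 78.5 CPM in XX and 0.802 CPM in XY, beside 299 and 1039 CPM for Wnt6. Counting a member as detected when it had at least 1 TPM in all 3 libraries of a group, 19, 21, 19 and 18 members were detected in XX and 25, 19, 19 and 19 in XY, in order of stage. The 11 members that were too low to be tested were Wnt1, Wnt2, Wnt3, Wnt3a, Wnt7a, Wnt8a, Wnt8b, Wnt10b, Wnt16, Fzd10 and Sfrp5. Of these, Wnt2 and Sfrp5 were high in 1 library only. Wnt2 was at 12.1 TPM (260 counts) in XX E11.5 replicate 3, the library with the highest stromal marker sum, and at most 0.32 TPM in the other 23. Sfrp5 was at 7.87 TPM (164 counts) in XX E11.5 replicate 1 and at most 0.33 TPM elsewhere.

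**Figure D1:**
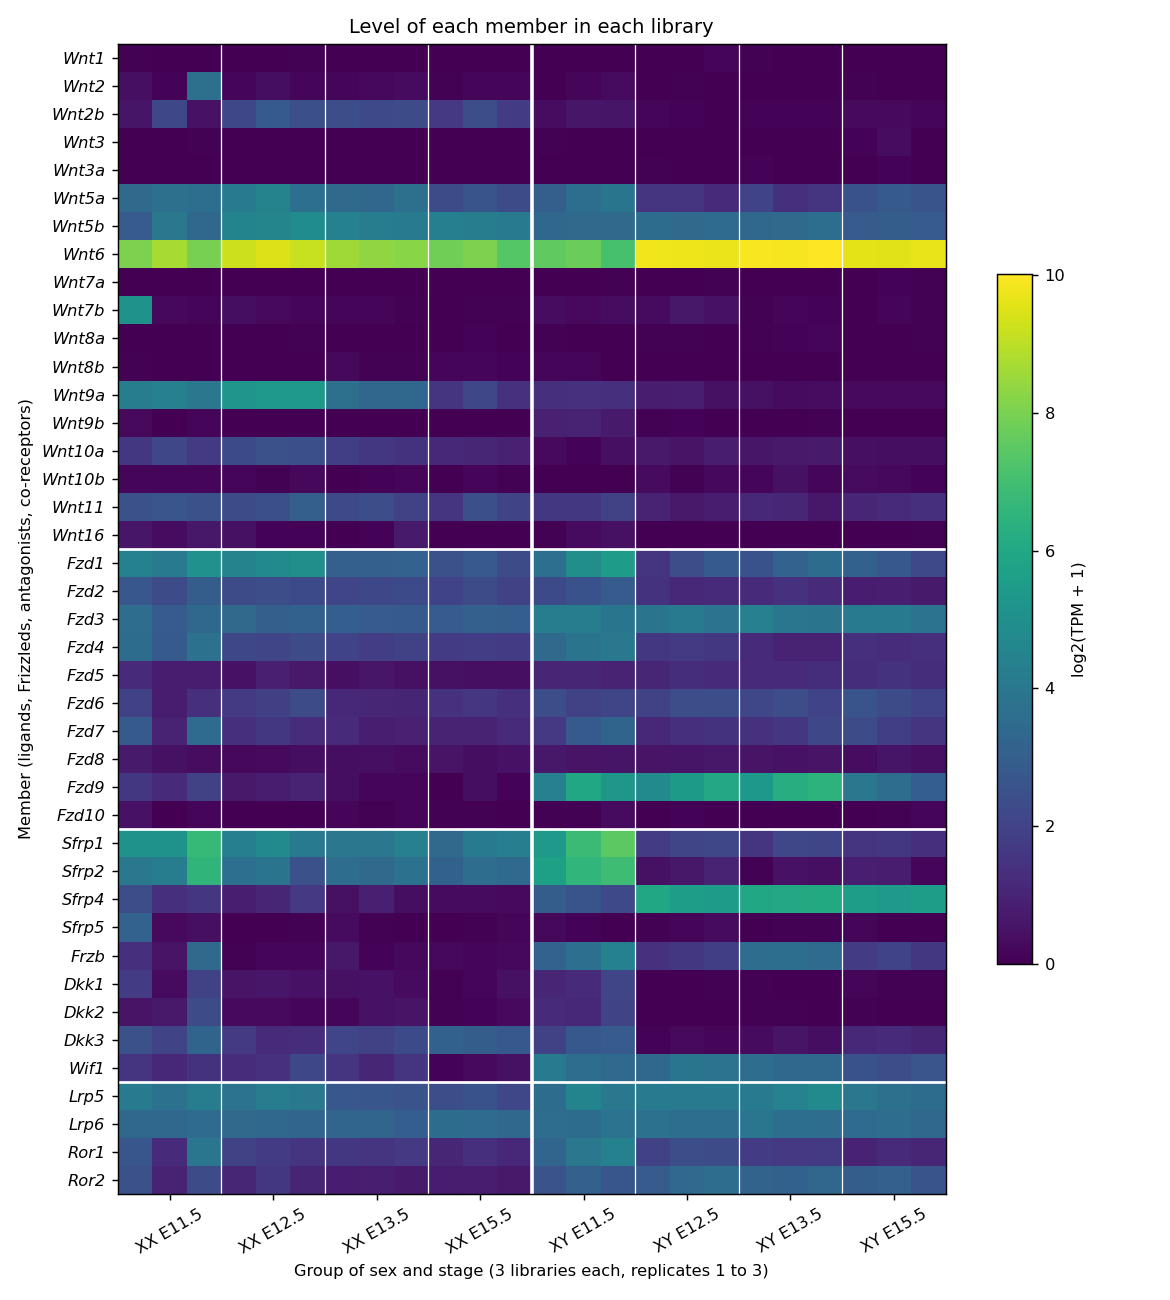
Level of each of the 41 members (rows, in the order ligands, Frizzleds, antagonists, co-receptors) in each of the 24 libraries (columns, 3 per group of sex and stage), as log2(TPM + 1). Wnt6 is the brightest member in every library but XY E11.5 replicate 3, where Sfrp1 is. Fzd9 is bright in XY and dark in XX, as is Sfrp4 from E12.5. Sfrp1 and Sfrp2 are bright in both sexes at E11.5 and darker in XY than in XX afterwards.

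Differences between the sexes were tested with edgeR's quasi-likelihood test on the counts, fitted across all 24 libraries and genes, and a member is called where the Benjamini-Hochberg adjusted p over the 16190 genes is below 0.05. At E11.5, 13 of the 30 tested members were called, 6 higher in XX and 7 higher in XY, a share of 43.3% where 42% of all tested genes were called (21.4% higher in XX and 20.6% in XY). The count at E12.5 was 25 (14 higher in XX, 11 in XY), or 83.3% against a background of 62.1% (30.5% and 31.5%). At E13.5 it was 24 (13 and 11), or 80% against 66.1% (32.8% and 33.3%). The E15.5 count was 20 (10 and 10), or 66.7% against 69.4% (34.9% and 34.4%). Thus at E11.5 and E15.5 the share of called members was near that of all genes. The median log2 difference of the members was -0.14, -0.12, -0.03 and -0.01 in order of stage, against 0.02, -0.01, 0.01 and 0.05 for all genes. With members whose lower group had at most 3 counts per library set to their bound, it was -0.02, 0.01 and 0.08 at the later stages. With only the 6 libraries of E11.5 in the fit, 7 members were called at that stage, and the share of all genes was not taken for that fit.

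The counts by role were small, and differences between roles were not tested. Of the 9 tested ligands, 6, 6, 6 and 5 were higher in XX in order of stage, while 1, 2, 1 and 1 were higher in XY. Of the 2 XY calls at E12.5, that of Wnt9b rested on 3, 4 and 1 counts in XY and 0 in each XX library. Its lower bound was 0.931-fold, so the size of that difference was not resolved. Of the 6 ligand calls in the XX direction at E11.5, that of Wnt2b (0.13 without XX E11.5 replicate 2) and that of Wnt7b (-0.64 without replicate 1) rested on 1 library each. Among the 9 tested Frizzleds, none, 3, 2 and 2 were higher in XX and 3, 4, 4 and 4 in XY. The 8 tested antagonists were split: none, 5, 5 and 3 were higher in XX in order of stage, while 2, 3, 3 and 3 were higher in XY. No co-receptor was higher in XX at any stage, and 1, 2, 3 and 2 of the 4 were higher in XY. Across stages, 4 members were higher in XX at all 4 (Wnt2b, Wnt9a, Wnt10a and Wnt11, where the background is 8.49% of genes) and 4 were higher in XY at all 4 (Fzd3, Fzd9, Frzb and Wif1, background 9.39%). These tallies include the E11.5 calls of Wnt2b, lost without XX E11.5 replicate 2, and of Frzb, lost without XX E11.5 replicate 1 or 2 or XY E11.5 replicate 3 and with DESeq2. Wnt6 was the only member called in both directions (background 13.9%), and Fzd7 and Ror1 were called at no stage (background 8.58%).

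**Figure D2:**
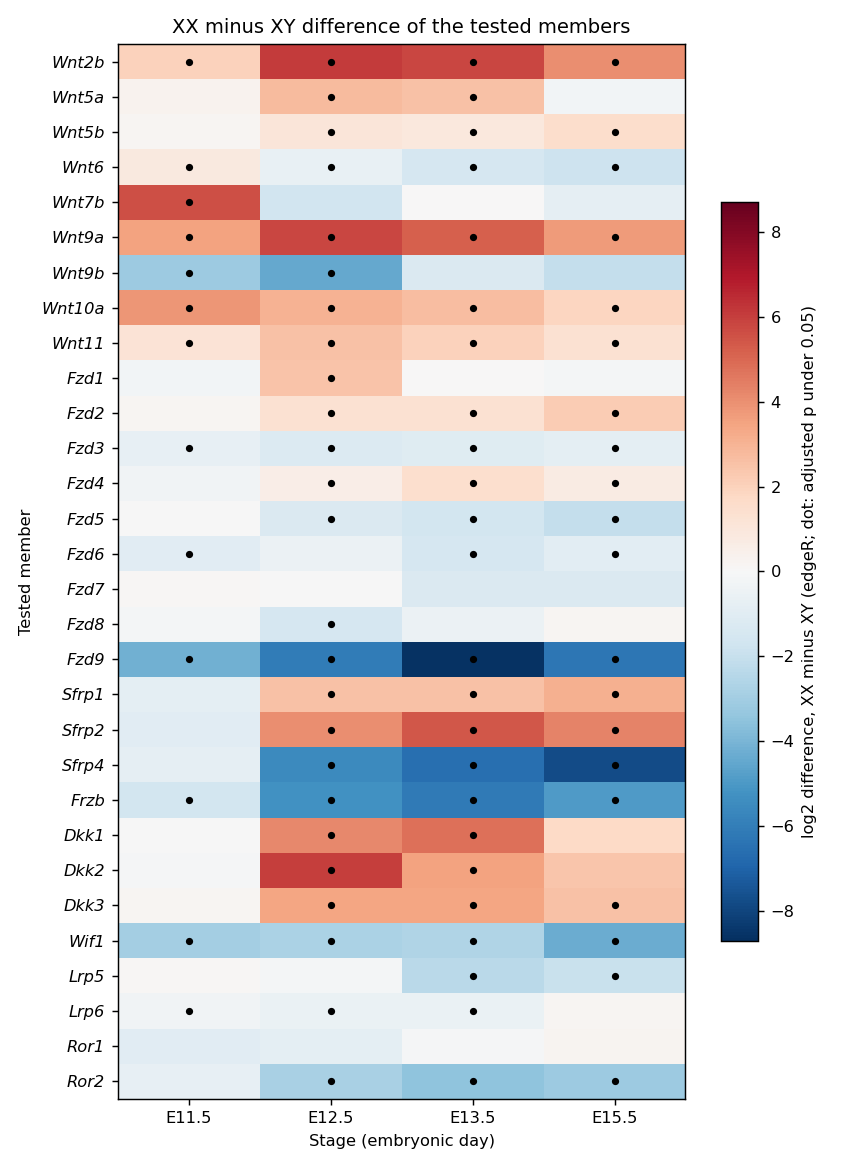
Log2 difference, XX minus XY, of the 30 tested members (rows) at the 4 stages (columns), from the edgeR fit; red is higher in XX, blue higher in XY, and a dot marks an adjusted p below 0.05. Ligands other than Wnt6 and Wnt9b are mostly red, the antagonists divide into a red set (Sfrp1, Sfrp2, Dkk1, Dkk2, Dkk3) and a blue set (Sfrp4, Frzb, Wif1), and Wnt7b at E11.5 rests on 1 library.

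Wnt6, a ligand known for roles in epithelial differentiation, changed places between the sexes after E11.5. In XX it was at 259, 422 and 245 TPM at E11.5, 612, 709 and 584 a day later, 380, 325 and 303 at E13.5, and 226, 263 and 164 at the last stage. In XY it was at 188, 216 and 135 TPM at E11.5, 888, 858 and 847 a day later, 958, 938 and 1034 at E13.5, and 772, 748 and 820 at the last stage. The XX libraries were above every XY library at E11.5 and below every XY library at the other stages, so the groups overlapped at no stage. The log2 difference, XX minus XY, was 0.88 (SE 0.21, adjusted p = 0.0017) at E11.5, -0.63 (SE 0.20, adjusted p = 0.0114) at E12.5, -1.45 (SE 0.21, adjusted p = 3.3e-06) at E13.5 and -1.80 (SE 0.21, adjusted p = 1.73e-07) at E15.5. At E11.5 the call was lost with only the 6 libraries of that stage in the fit (0.88, adjusted p = 0.09), and at E12.5 it was lost without XX E12.5 replicate 1 (-0.53, adjusted p = 0.0595) or replicate 3 (-0.52, adjusted p = 0.0713). Between E11.5 and E12.5 Wnt6 rose by a log2 change of 2.45 (SE 0.21, adjusted p = 6.96e-09) in XY and of 0.94 (SE 0.21, adjusted p = 0.00155) in XX, the latter not called with only the 6 libraries compared (0.91, adjusted p = 0.0717). Its level changed over the 4 stages in both sexes (adjusted p = 6.37e-05 in XX and 8.24e-09 in XY, F test).

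Wnt9a, another ligand, had the widest gap between the sexes of the member ligands with at least 10 TPM in every library of some group. Its XX levels were 17.2, 19.3 and 15.1 TPM at E11.5, 36.2, 40.3 and 41.5 a day later, 11.8, 8.79 and 9.5 at E13.5, and 1.85, 3.37 and 1.69 at the last stage. Its XY levels were 1.55, 1.67 and 1.6 TPM at E11.5, 0.68, 0.79 and 0.37 a day later, 0.37, 0.21 and 0.27 at E13.5, and 0.18, 0.18 and 0.19 at the last stage. Every XX library was above every XY library of its stage. The log2 difference was 3.51 (SE 0.21, adjusted p = 4.14e-11) at E11.5, 5.79 (SE 0.24, adjusted p = 2.18e-14) at E12.5, 5.22 (SE 0.26, adjusted p = 2.94e-13) at E13.5 and 3.67 (SE 0.30, adjusted p = 7.42e-10) at E15.5. In XX it rose by 1.10 on the log2 scale to E12.5 (SE 0.19, adjusted p = 0.000191), then fell by 1.74 to E13.5 (SE 0.19, adjusted p = 2.57e-06) and by 2.15 to E15.5 (SE 0.21, adjusted p = 4.17e-07). The peak at E12.5 in XX thus had no counterpart in the XY means, which were 1.61, 0.613, 0.283 and 0.183 TPM.

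Wnt2b, Wnt10a and Wnt11 were lower ligands with the same direction. Wnt2b was at 3.55, 6.2 and 4.47 TPM in XX E12.5 and at 0.14, 0.06 and 0.02 TPM in XY E12.5, a log2 difference of 6.05 (SE 0.73, adjusted p = 3.84e-07), or 6.68 without XY E12.5 replicate 1. At E13.5 and E15.5 the differences of Wnt2b were 5.82 (SE 0.71) and 4.01 (SE 0.65), with adjusted p = 4.17e-07 and 1.31e-05. Its E11.5 call rested on XX replicate 2, which had 3.56 TPM where the other XX libraries had 0.49 and 0.41 and the XY libraries 0.26, 0.53 and 0.47. The difference of 1.97 (SE 0.55, adjusted p = 0.00683) dropped to 0.13 (adjusted p = 0.806) without that library, and was not called with limma on log2(TPM + 1) (0.59, adjusted p = 0.12), with limma on log2(TPM + 0.1) (1.03, adjusted p = 0.114) or with only the 6 libraries of that stage (adjusted p = 0.168). Wnt10a was at 2.09, 3.37 and 2.28 TPM in XX E11.5 and at 0.2, 0.07 and 0.33 TPM in XY E11.5, a difference of 3.87 (SE 0.43, adjusted p = 3.93e-07), or 4.53 without XY E11.5 replicate 3. Its difference was 3.03, 2.66 and 1.89 at the later stages, with adjusted p at most 0.000796. Wnt11, a ligand of beta-catenin-independent signalling, was at 4.02, 4.49 and 7.11 TPM in XX E12.5 and at 1.01, 0.61 and 0.74 TPM in XY E12.5. Its differences were 1.18, 2.52, 2.03 and 1.33 (SE 0.29 to 0.32, adjusted p at most 0.00257) in order of stage.

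The close relatives Wnt5a and Wnt5b, which are known mainly for beta-catenin-independent signalling, differed in course. Wnt5a was at 10, 11.8 and 11.2 TPM in XX E11.5 and at 7.14, 11.3 and 14 TPM in XY E11.5, so the groups overlapped. By E12.5 it was at 16.6, 21.1 and 11.51 TPM in XX and at 1.81, 1.85 and 1.3 TPM in XY, a difference of 2.79 (SE 0.24, adjusted p = 2.1e-09), followed by 2.52 (SE 0.24, adjusted p = 8.85e-09) at E13.5. In XY it fell by 1.92 to E12.5 (SE 0.23, adjusted p = 6.39e-07) and rose by 1.53 between E13.5 and E15.5 (SE 0.24, adjusted p = 8.13e-05), while in XX it fell by 1.22 over the latter step (SE 0.23, adjusted p = 0.000589). At E15.5 the sexes overlapped again, with 3.92, 5.05 and 4.01 TPM in XX and 4.81, 6.17 and 5.15 in XY. Wnt5b was at 22.1, 22.5 and 28.4 TPM in XX E12.5 and at 10.7, 9.96 and 10.3 in XY E12.5. It was higher in XX by 1.05, 0.90 and 1.51 at the 3 later stages in order (SE 0.21 to 0.22, adjusted p = 0.000194, 0.000787 and 2.95e-06). In XX it rose by 1.11 from E11.5 to E12.5 (SE 0.21, adjusted p = 0.000502), a call lost with only those 6 libraries (1.09, adjusted p = 0.0896).

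The remaining tested ligands, Wnt7b and Wnt9b, are known from the epithelia of the kidney and its ducts. Wnt7b was at 33.7 TPM (1211 counts) in XX E11.5 replicate 1 and at 0.16 and 0.1 TPM in replicates 2 and 3, against 0.27, 0.18 and 0.27 TPM in XY E11.5. Its E11.5 difference of 5.58 (SE 1.27, adjusted p = 0.00156) turned to -0.64 (adjusted p = 0.471) without that library, and was not called with only the 6 libraries of that stage (adjusted p = 0.0954). The same library was the one with Sfrp5. The 6 markers of mesonephric tubule and duct together summed to 72.4, 57.5 and 49.2 CPM in the 3 libraries, and their part in the result was not tested. Wnt9b was at 0.88, 1.02 and 0.64 TPM in XY E11.5 (91, 107 and 65 counts) and at 0.18, 0 and 0.11 TPM in XX E11.5. The difference of -3.13 (SE 0.75, adjusted p = 0.00297) ranged to -3.98 without XX E11.5 replicate 1 and to -2.49 without replicate 2. Wnt9b overlaps Wnt3, so reads there may be shared, which was not tested. Wnt3 had 2, 0 and 0 counts in XY E11.5. In every later library Wnt9b was at most 0.06 TPM. The mesonephric marker Cdh16 was at 8.61, 7.90 and 9.82 CPM in XY E11.5 and 0 in all 3 XY E12.5 libraries, and the mesonephric sum went from 47.2 to 57.0 CPM at XY E11.5 to 5.18 to 9.36 CPM at XY E12.5. Their part in the Wnt9b result was not tested.

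**Figure D3:**
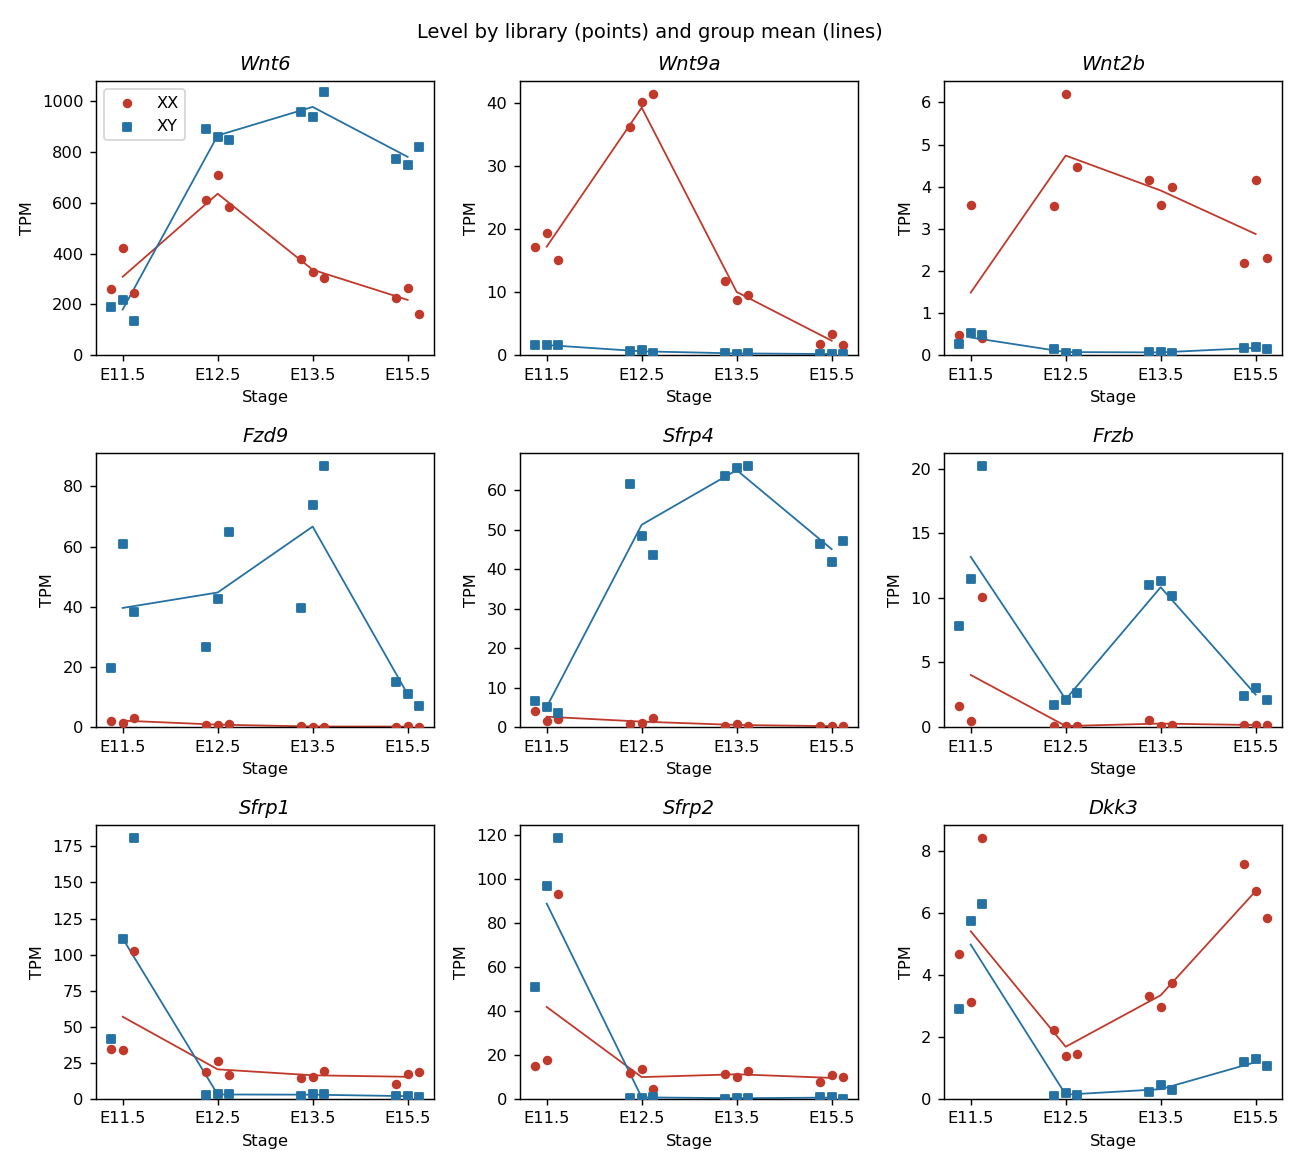
TPM of 9 members in each library (XX circles, XY squares) at the 4 stages, with lines through the group means; each panel has its own linear axis from 0. Wnt6 crosses between E11.5 and E12.5, Wnt9a peaks in XX at E12.5, Fzd9 and Sfrp4 are near 0 in XX, and Sfrp1 and Sfrp2 drop in XY after E11.5.

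Frizzled transcripts were led by different genes in the sexes. In XX, Fzd1 took 39.3%, 53.7% and 32.2% of the summed Frizzled TPM at E11.5, E12.5 and E13.5, and Fzd3 led with 32.9% at E15.5. In XY, Fzd9 took 34.9%, 60.8% and 66.4% at the first 3 stages, and Fzd3 led with 35.9% at E15.5. The Frizzled sum itself was 58.0 ± 19.8, 48.0 ± 4.35, 23.4 ± 0.70 and 21.3 ± 2.12 TPM in XX and 113.6 ± 36.6, 73.6 ± 22.0, 100.4 ± 24.7 and 43.2 ± 9.61 TPM in XY (mean ± SD, n = 3).

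Fzd9 accounted for much of that gap. It was at 19.8, 60.9 and 38.2 TPM in XY E11.5, 26.7, 42.6 and 64.9 a day later, 39.4, 73.7 and 86.8 at E13.5, and 14.9, 10.9 and 6.92 at the last stage. In XX it was at 2.09, 1.33 and 2.92 TPM at E11.5, 0.61, 0.73 and 0.99 a day later, 0.28, 0.13 and 0.09 at E13.5, and 0, 0.31 and 0.08 at the last stage. The lowest XY library was above the highest XX library at each stage, although the XY libraries of a stage spread widely. The log2 difference was -4.17 (SE 0.46, adjusted p = 4.92e-07), -6.05 (SE 0.51, adjusted p = 3.24e-09), -8.61 (SE 0.64, adjusted p = 3.77e-10) and -6.31 (SE 0.69, adjusted p = 8.9e-08) in order of stage, the latter -7.40 without XX E15.5 replicate 2. In XY, Fzd9 fell by 2.62 between E13.5 and E15.5 (SE 0.40, adjusted p = 8.7e-05).

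Fzd1 was close between the sexes at E11.5 and parted at E12.5. Its XX levels were 19.9, 16.4 and 32.2 TPM at E11.5 and 21.3, 26.2 and 29.9 at E12.5, and its XY levels were 11.7, 29.8 and 45.6 TPM at E11.5 and 1.87, 4.18 and 6.15 at E12.5. The groups overlapped at E11.5 and were apart at E12.5, where the difference was 2.46 (SE 0.43, adjusted p = 4.74e-05). XY fell first, by 2.60 from E11.5 to E12.5 (SE 0.43, adjusted p = 3.68e-05), and XX fell by 1.55 from E12.5 to E13.5 (SE 0.41, adjusted p = 0.00701), to 7.43, 7.4 and 7.78 TPM beside 4.77, 7.81 and 10.5 TPM in XY. Fzd1 and Fzd7 put the 3 libraries of a group in the same order in 4 of 4 XY groups and in 1 of 4 XX groups, and Fzd1 and Fzd9 did so in 3 of 4 XY groups and 2 of 4 XX groups. The antagonists Sfrp1 and Sfrp2 did so in 3 of 4 XY groups and 1 of 4 XX groups. The share over all pairs of genes was not taken. Genes of 1 library share its RNA, so this is a description of the libraries.

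The other Frizzleds had smaller differences. Fzd3 was higher in XY at all stages, by -0.69, -1.20, -1.05 and -0.85 as XX minus XY (SE 0.11 at each, adjusted p at most 2.5e-05), with 13.1 to 19.6 TPM in the 12 XY libraries and 6.2 to 11 TPM in the 12 XX libraries. Fzd6 was higher in XY at E11.5 (-1.01, SE 0.24, adjusted p = 0.00169), E13.5 (-1.43, SE 0.24, adjusted p = 2.45e-05) and E15.5 (-0.91, SE 0.23, adjusted p = 0.00173), the E11.5 call being lost with only the 6 libraries of that stage (adjusted p = 0.0899). Fzd5 was also higher in XY from E12.5, by -1.27, -1.63 and -2.07 (SE 0.26 to 0.28, adjusted p at most 0.000271), at levels of at most 1.77 TPM. In the opposite direction, Fzd2 was higher in XX from E12.5 by 1.30, 1.33 and 2.21 (SE 0.20 to 0.22, adjusted p at most 8.96e-06) and Fzd4 by 0.55, 1.44 and 0.71 (SE 0.17 to 0.18, adjusted p at most 0.00876). Fzd4 was at 9.92, 13.6 and 15.1 TPM in XY E11.5 and at 2.11, 2.21 and 2.04 TPM in XY E12.5, a fall by 2.39 (SE 0.18, adjusted p = 4.76e-10). In XX it was at 10.5, 6.12 and 12.46 TPM and then 3.52, 3.26 and 3.95 TPM, a fall by 1.5 (SE 0.17, adjusted p = 5.38e-06).

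**Figure D4:**
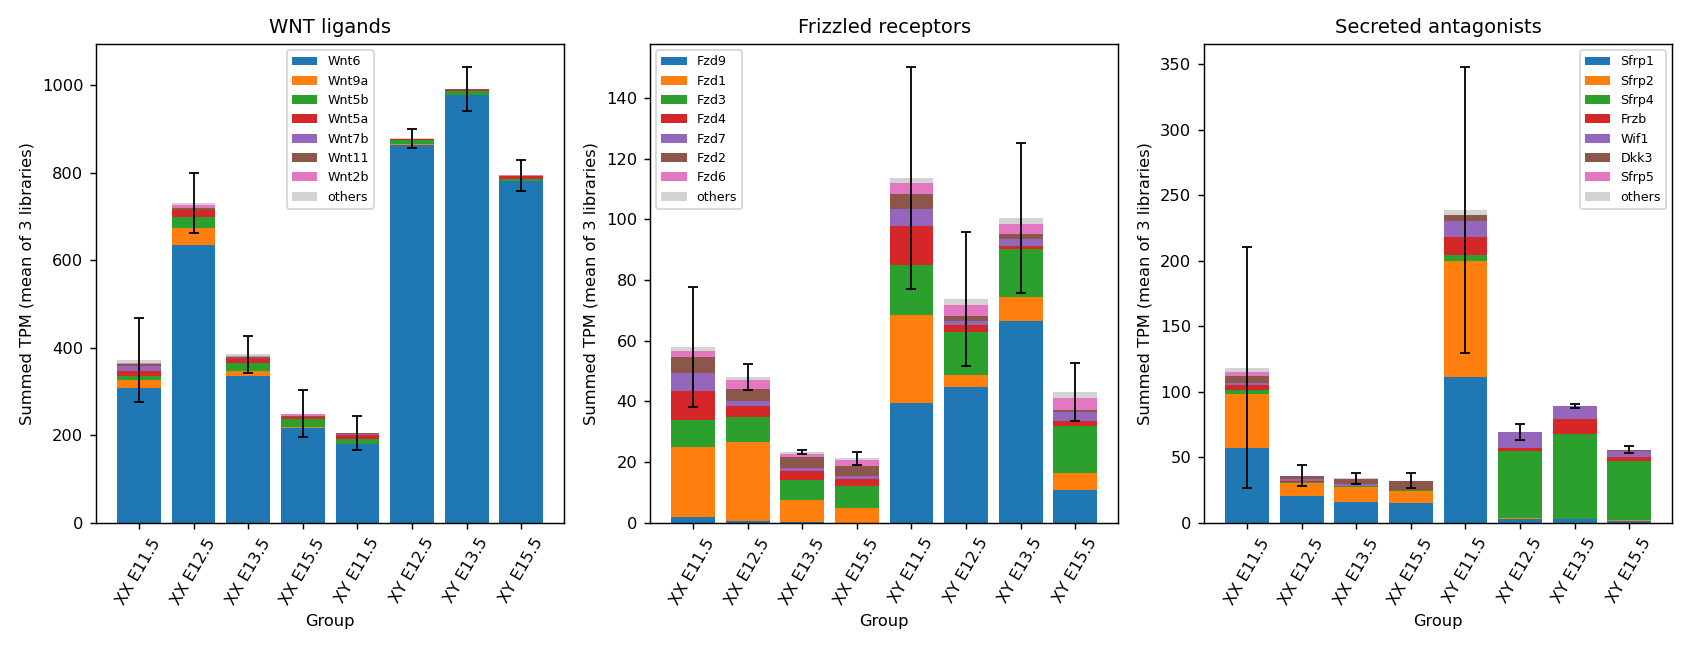
Summed TPM of the ligands (without Wnt4), Frizzleds and secreted antagonists in each group, as the mean of 3 libraries stacked by gene, with the SD of the sum as the error bar. Wnt6 fills most of each ligand bar, Fzd9 most of the XY Frizzled bars at E12.5 and E13.5, and the XY antagonist bar passes from Sfrp1 and Sfrp2 at E11.5 to Sfrp4 later; the Wnt7b and Sfrp5 slices in XX E11.5 come from 1 library.

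The secreted antagonists exchanged their leading gene in XY. Sfrp1 and Sfrp2 led at E11.5 in both sexes, with 48.0% and 35.2% of the summed antagonist TPM in XX and 46.5% and 37.1% in XY. From E12.5, Sfrp4 took 74.0%, 72.9% and 80.6% of the sum in XY, while Sfrp1 kept 56.4%, 48.0% and 47.2% in XX. The antagonist sum was 118.5 ± 92.2, 36.2 ± 8.03, 33.9 ± 4.28 and 32.4 ± 5.56 TPM in XX and 239.2 ± 109.1, 69.3 ± 5.92, 89.3 ± 1.5 and 56.0 ± 2.50 TPM in XY (mean ± SD, n = 3).

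Sfrp4 was at 6.66, 5 and 3.57 TPM in XY E11.5, 61.7, 48.5 and 43.6 a day later, 63.6, 65.6 and 66.2 at E13.5, and 46.3, 41.9 and 47.1 at the last stage. The XX levels were 4.18, 1.62 and 2.02 TPM at E11.5, 0.8, 1.08 and 2.19 a day later, 0.37, 0.86 and 0.31 at E13.5, and 0.22, 0.24 and 0.18 at the last stage. The sexes overlapped at E11.5 and were far apart afterwards. Sfrp4 rose in XY by 3.41 from E11.5 to E12.5 (SE 0.33, adjusted p = 3.37e-08), and the difference, XX minus XY, was -5.54 (SE 0.39, adjusted p = 1.48e-10), -6.59 (SE 0.43, adjusted p = 3.9e-11) and -7.81 (SE 0.51, adjusted p = 3.12e-11) at the 3 later stages in order. At E11.5 it was -0.79 (SE 0.34, adjusted p = 0.072), but called without XX E11.5 replicate 1 (-1.5, adjusted p = 0.00113), without XY E11.5 replicate 3 (-0.98, adjusted p = 0.0384) and with limma on log2(TPM + 1) (-0.79, adjusted p = 0.0107) or log2(TPM + 0.1) (-1.01, adjusted p = 0.0253).

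Frzb, which binds WNT ligands like the SFRP proteins, and Wif1 were the other antagonists higher in XY. Frzb was at 7.84, 11.49 and 20.2 TPM in XY E11.5, 1.72, 2.12 and 2.6 a day later, 11, 11.3 and 10.2 at E13.5, and 2.41, 3.01 and 2.11 at the last stage, so its XY level was high, low, high and low in turn. Its level changed over the XY stages (adjusted p = 0.00132, F test), with a fall by 2.36 to E12.5 (SE 0.60, adjusted p = 0.00271). In XX E12.5 no library had more than 3 counts of Frzb, and XY E12.5 was at least 35.6-fold higher (adjusted p = 8.45e-05). The difference was -6.14 (SE 0.85, adjusted p = 2.73e-06) at E13.5 and -4.96 (SE 0.98, adjusted p = 0.000148) at E15.5. At E11.5 Frzb was at 1.6, 0.43 and 10.1 TPM in XX, so the sexes overlapped in XX replicate 3, the library with the high stromal sum. The E11.5 difference of -1.60 (SE 0.59, adjusted p = 0.0342) became -3.62 (adjusted p = 8.6e-07) without that library and was not called without XX replicate 1 (-1.22, adjusted p = 0.124), XX replicate 2 (-1.07, adjusted p = 0.08) or XY replicate 3 (-1.14, adjusted p = 0.16), with DESeq2 (adjusted p = 0.068), without the filter on low counts (adjusted p = 0.0694) or with only the 6 libraries of that stage (adjusted p = 0.28).

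Wif1 was at 15.9, 11 and 9.74 TPM in XY E11.5, 9.34, 13.7 and 12.9 a day later, 10.8, 9.36 and 9.44 at E13.5, and 4.79, 4.11 and 5.16 at the last stage. In XX it was at 1.1 to 3.48 TPM in the 9 libraries of E11.5 to E13.5 and at 0.06, 0.19 and 0.36 TPM at E15.5. No XX library reached the level of an XY library. The differences were -2.93, -2.77, -2.59 and -4.33 in order of stage (SE 0.31 to 0.43, adjusted p at most 5.3e-07), the latter -5.16 without XX E15.5 replicate 3. In XX, Wif1 fell by 2.80 between E13.5 and E15.5 (SE 0.46, adjusted p = 0.000185), or by 3.62 without that library.

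Sfrp1 and Sfrp2 moved the other way. Sfrp1 was at 41.3, 111 and 181 TPM in XY E11.5 and at 2.37, 3.27 and 3.33 TPM in XY E12.5, a fall by 4.99 on the log2 scale (SE 0.50, adjusted p = 6.49e-08). Sfrp2 was at 50.7, 96.7 and 119 TPM and then at 0.38, 0.56 and 1.01 TPM, a fall by 7.21 (SE 0.74, adjusted p = 9.3e-08). No XY E12.5 library came near an XY E11.5 library for either gene. In XX, Sfrp1 was at 34.5, 33.6 and 103 TPM at E11.5, 18.9, 26.2 and 16.2 a day later, 14.5, 14.9 and 19.5 at E13.5, and 10.1, 17.1 and 18.5 at the last stage. Sfrp2 was at 14.9, 17.4 and 92.8 TPM in XX E11.5 and at 4.56 to 13.3 TPM in the 9 later XX libraries. XX replicate 3 stood out at E11.5 for both genes. The XX falls to E12.5, by 1.55 for Sfrp1 (SE 0.42, adjusted p = 0.00825) and by 2.15 for Sfrp2 (SE 0.54, adjusted p = 0.00481), were not called without that library (-0.83, adjusted p = 0.112 and -0.80, adjusted p = 0.126) or with only the 6 libraries compared (adjusted p = 0.0676 and 0.109), and that of Sfrp2 was not called with limma on log2(TPM + 0.1) (adjusted p = 0.0546).

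From E12.5 the XX level was the higher one. The differences of Sfrp1, XX minus XY, were 2.57, 2.55 and 3.11 (SE 0.46 to 0.48, adjusted p = 6.65e-05, 6.32e-05 and 1.01e-05), and those of Sfrp2 were 4.06, 5.40 and 4.33 (SE 0.72 to 0.78, adjusted p = 6.14e-05, 5.27e-06 and 3.77e-05) at the 3 later stages in order. At E11.5 the sign was opposite and not called, -0.87 for Sfrp1 (SE 0.41, adjusted p = 0.0966) and -1.0 for Sfrp2 (SE 0.51, adjusted p = 0.121). Without XX E11.5 replicate 3 both were called as higher in XY, at -1.61 (adjusted p = 0.00299) and -2.36 (adjusted p = 0.000114). Sfrp1 was also called without XY E11.5 replicate 1 (-1.27, adjusted p = 0.0124) and with the replicate number as a block (-0.85, adjusted p = 0.0415), and Sfrp2 with limma on log2(TPM + 1) (-1.49, adjusted p = 0.0206).

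The sum of 10 interstitial and stromal markers (among them Nr2f2, Pdgfra, Tcf21 and Col1a1) was compared with Sfrp1 and Sfrp2. In XY it was 1122 to 1826 CPM at E11.5 with 9 or 10 of the 10 markers above 1 CPM, 139 to 168 CPM a day later with 5 or 6, 116 to 125 CPM at E13.5 with 6 to 8, and 227 to 267 CPM at the last stage with 9. In XX it was 537 to 3329 CPM at E11.5, then 394 to 664, 402 to 518 and 472 to 641 CPM, with all 10 above 1 CPM in each library. The marker sum was thus higher in XX than in XY from E12.5, and within XY E11.5 replicate 3 had the highest marker sum, Sfrp1 and Sfrp2. From XY E13.5 to E15.5 the marker sum rose. Over that step mean Sfrp1 went from 2.85 to 1.83 TPM and mean Sfrp2 from 0.26 to 0.54 TPM. XX E11.5 replicate 3, with the highest marker sum, 3329 CPM, had Sfrp1 at 103 TPM and Sfrp2 at 92.8 TPM. Replicates 1 and 2 of that group, with marker sums of 1092 and 537 CPM, had Sfrp1 at 34.5 and 33.6 TPM. Sfrp2 was at 14.9 and 17.4 TPM in these 2 libraries. The part of interstitial and stromal cells in the results on Sfrp1, Sfrp2 and the Dkk genes was not tested. Nor was their part in the falls of other members in XY after E11.5.

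**Figure D5:**
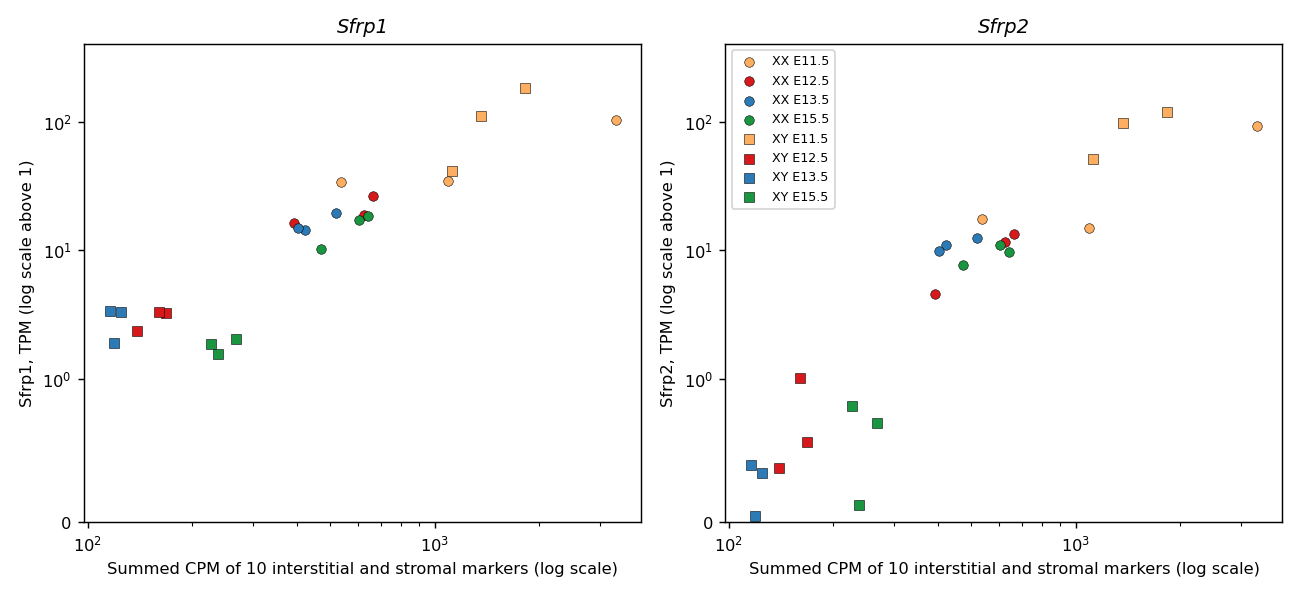
Sfrp1 (left) and Sfrp2 (right) TPM against the summed CPM of 10 interstitial and stromal markers, 1 point per library (XX circles, XY squares, colour by stage), on log axes that turn linear below 1 TPM. The E11.5 libraries lie at the upper right, with marker sums of 537 to 3329 CPM, and the XY libraries of E12.5 to E15.5 at the lower left, with 116 to 267 CPM.

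The Dickkopf genes fell in XY over the same step. Dkk3, a divergent family member, was at 2.9, 5.75 and 6.28 TPM in XY E11.5, 0.08, 0.2 and 0.12 a day later, 0.22, 0.43 and 0.28 at E13.5, and 1.2, 1.28 and 1.07 at the last stage. Its XX levels were 4.67, 3.12 and 8.43 TPM at E11.5, 2.22, 1.37 and 1.45 a day later, 3.31, 2.96 and 3.75 at E13.5, and 7.57, 6.69 and 5.85 at the last stage. The sexes overlapped at E11.5 and at no later stage, and both had their lowest level at E12.5. The fall to E12.5 was by 4.96 in XY (SE 0.41, adjusted p = 2.44e-09) and by 1.74 in XX (SE 0.31, adjusted p = 0.000316). Dkk3 then rose in XX by 1.22 to E13.5 (SE 0.32, adjusted p = 0.00556), and in XY by 1.88 from E13.5 to E15.5 (SE 0.38, adjusted p = 0.000998). It was higher in XX by 3.41, 3.44 and 2.55 at the 3 later stages in order (SE 0.33 to 0.42, adjusted p at most 5.75e-07).

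Dkk1 and Dkk2, inhibitors of LRP5 and LRP6, were low after E11.5 in both sexes. Dkk1 had 60, 76 and 175 counts in XY E11.5 and 0, 0 and 2 in XY E12.5, at least 20.1-fold lower (adjusted p = 2.07e-05). Dkk2 had 112, 98 and 261 counts and then 0 in all 3 libraries, at least 30.5-fold lower (adjusted p = 8.07e-06). In XX, Dkk1 had 62, 8 and 66 counts at E11.5 and 16, 17 and 13 at E12.5, and Dkk2 had 19, 33 and 140 and then 11, 9 and 5. XX was thus at least 4.84-fold higher for Dkk1 (adjusted p = 0.00218) and at least 2.60-fold higher for Dkk2 (adjusted p = 0.00614) at E12.5, and at least 4.16-fold (adjusted p = 0.00195) and 6.66-fold (adjusted p = 0.0042) at E13.5, with the bound set at 3 counts in each lower library. These 4 differences were not called with limma on log2(TPM + 1), with adjusted p = 0.14 and 0.259 for Dkk1 and 0.581 and 0.306 for Dkk2, and that of Dkk2 at E12.5 was not called with log2(TPM + 0.1) (adjusted p = 0.0557).

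Of the co-receptors, Lrp5 parted between the sexes at E13.5. It was at 12.9, 17.9 and 15.3 TPM in XX E12.5 and at 16.2, 17.1 and 16.3 TPM in XY E12.5, a log2 difference of -0.20 (SE 0.22, adjusted p = 0.462). At E13.5 it was at 5.63, 5.38 and 4.87 TPM in XX, a fall by 1.66 (SE 0.24, adjusted p = 3.48e-05), and at 17.2, 20.6 and 26.8 TPM in XY. The groups, which overlapped at E12.5, did not at E13.5, and the difference was -2.35 (SE 0.24, adjusted p = 2.85e-08), then -1.90 (SE 0.24, adjusted p = 5.75e-07) at E15.5. Lrp6, its close relative, stayed between 7.05 and 14.2 TPM in all 24 libraries. It was higher in XY by log2 differences of -0.58 (E12.5) and -0.57 (a day later) (SE 0.11 at both, adjusted p = 7.86e-05 and 9.29e-05). At E11.5 its difference was -0.30 (SE 0.11, adjusted p = 0.0284), with groups that overlapped. That call was lost without XX E11.5 replicate 1 (-0.28, adjusted p = 0.0738) or replicate 2 (-0.23, adjusted p = 0.11), without XY E11.5 replicate 3 (-0.16, adjusted p = 0.239), with removal of GC and length trends (-0.14, adjusted p = 0.239), with limma on log2(TPM + 1) (adjusted p = 0.127) or log2(TPM + 0.1) (adjusted p = 0.133), and with only the 6 libraries of that stage (adjusted p = 0.25).

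The ROR co-receptors, which bind WNT5A, differed from each other. Ror2 was at 6.27, 9.69 and 11.1 TPM in XY E12.5 and at 1.11, 2.09 and 1.05 TPM in XX E12.5, with no overlap. The difference was -2.85, -3.53 and -3.17 at the 3 later stages in order (SE 0.38 to 0.41, adjusted p at most 1.41e-06). Ror1 was at 8.56, 15.3 and 20 TPM in XY E11.5 and at 2.9, 4.29 and 3.94 TPM in XY E12.5, a fall by 1.76 (SE 0.45, adjusted p = 0.00279), and it was highest in XX in E11.5 replicate 3, at 14.1 TPM.

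Between stages, most of the called members fell at the first step in both sexes. In XY, 21 of 30 members were called between E11.5 and E12.5, 5 rising and 16 falling, or 70% against 51.9% of all genes (27.1% rising, 24.8% falling), with a median log2 change of -1.25 against 0.03 for all genes. Over this XY step the interstitial and stromal marker sum went from 1122 to 1826 CPM to 139 to 168 CPM. The mesonephric sum went from 47.2 to 57.0 CPM to 5.18 to 9.36 CPM. The part of such cells in the XY changes was not tested for any member. In XX, 22 were called over the same step, 5 rising and 17 falling, or 73.3% against 34% of all genes (16.7% rising, 17.3% falling), with a median of -0.86 against 0.01. The XX count was less firm: it was 13 without XX E11.5 replicate 1, 14 without replicate 3 and 4 with only the 6 libraries compared. Between E12.5 and E13.5, 6 were called in XX (1 rising, 5 falling, background 31.7%, 14.2% rising and 17.4% falling) and 3 in XY (1 rising, 2 falling, background 16.6%, 8.02% rising and 8.62% falling, or 1 without XY E12.5 replicate 2). Between E13.5 and E15.5, 6 were called in XX (2 rising, 4 falling, background 25.6%, 12.8% in each direction, or 3 without XX E13.5 replicate 1) and 9 in XY (2 rising, 7 falling, background 21.3%, 9.79% falling). With only the 6 libraries of each step in the fit, the counts were 4, 10 and 10 at the XX steps and 19, 7 and 14 at the XY steps. The first XX step thus had the highest count with all 24 libraries in the fit and the lowest with 6. The share of all genes called was not taken for these smaller fits, so their counts have no background to be set against.

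Over all stages, 29 of the 30 tested members changed in XX where 74% of genes did, and 23 changed in XY where 70.3% did. The sex difference itself changed with stage for 26 members, or 86.7% where 70.1% of genes had such an interaction. By role, the interaction was called for 8 of 9 ligands, 7 of 9 Frizzleds, all 8 tested antagonists and 3 of 4 co-receptors.

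Other genes of the pathway, a fixed list of 56 that are not members and of which 54 were tested, were called in 25 cases at E11.5 (12 higher in XX, 13 in XY), 35 a day later (25 and 10), 39 at E13.5 (23 and 16) and 46 at the last stage (28 and 18). These are 46.3%, 64.8%, 72.2% and 85.2% of the list, against 42%, 62.1%, 66.1% and 69.4% of all genes. Without regard to direction, the first 3 shares were thus near the background. By direction, 21.4%, 30.5%, 32.8% and 34.9% of all genes were called higher in XX and 20.6%, 31.5%, 33.3% and 34.4% in XY. The median log2 difference of the list was 0.08, 0.41, 0.35 and 0.48, against 0.02, -0.01, 0.01 and 0.05 for all genes. Lef1, a nuclear partner of beta-catenin, and Rspo1, the secreted enhancer of WNT signalling, were among those with a large XX excess. At E13.5 Lef1 was at 88.1, 81.6 and 80.4 TPM in XX and at 0.89, 0.63 and 0.61 TPM in XY (log2 difference 7.26, SE 0.25, adjusted p = 1.71e-15). Rspo1 was at 27.8, 27.2 and 22.0 TPM in XX and at 0.09, 0.3 and 0.41 TPM in XY (6.503, SE 0.37, adjusted p = 3e-12), or 7.12 without XY E13.5 replicate 3. Nkd2, an intracellular WNT inhibitor, was at 14.5, 14.6 and 14.5 TPM in XX and at 131.5, 140.3 and 142.9 TPM in XY (-3.13, SE 0.27, adjusted p = 2.46e-09). Prickle1, of the planar cell polarity branch, was at 3.1, 2.84 and 3.21 TPM in XX and at 35.9, 37.5 and 38.0 TPM in XY (-3.55, SE 0.26, adjusted p = 2.77e-10). At no point did the sexes overlap for these 4 genes at E13.5.

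At the other stages, the genes with the largest differences among called genes that reached 10 CPM in one of the groups were partly the same. At E11.5 they were Rspo1 (3.50) and Lef1 (3.05) in the XX direction and Nkd2 (-4.25, or -4.99 without XX E11.5 replicate 2) and the R-spondin receptor gene Lgr5 (-2.21, or -3.03 without that library) in the XY direction. At E12.5 they were Lef1 (7.37) and the target gene Sp5 (5.55) against Prickle1 (-3.25) and Nkd2 (-2.84). At E15.5 Rspo1 (7.36) and Wnt4 (6.59) stood against Prickle1 (-3.70) and the cytoplasmic effector gene Dvl2 (-2.11), all as log2 differences with adjusted p of at most 2.23e-05 in edgeR.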

How the data were processed

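Polyadenylated RNA of sorted cells was made into libraries with a low-input kit that amplifies cDNA, as the labels' protocols describe, with no mention of molecular identifiers, so reads are not independent molecules. The authors deposited expected counts (estimated counts per gene) and TPM per gene symbol; the build is mm10, per the submitters' processing notes, and the aligner, counter and use of strand are not given in the sources used here. Of the deposited estimated counts, 17.5% were not whole, and all were rounded. For XX E13.5 replicate 1 the title gives E13.5 and another field a different stage; the title was kept. TPM sums over the listed genes were 938740 to 961696 per library.

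Counts were tested with edgeR 4.0.16 (R 4.3.3; filterByExpr, TMM, robust quasi-likelihood fit of the 8 groups, 16 residual degrees of freedom), checked on simulated data, with Benjamini-Hochberg adjustment over 16190 genes. TPM values are the authors', CPM values use TMM library sizes, and folds against a group with at most 3 counts per library (0.0774 to 0.26 CPM) are lower bounds that cover counting error only. Alternatives were DESeq2 1.42.0, its size factors, limma 3.58.1 on log2 TPM, other filters, only the libraries compared, a replicate block and leaving out each library. Members described in full were those called with an absolute log2 change of at least 1 and a mean of at least 5 TPM in the higher group, the leaders of each role and those called in both directions; of other pathway genes, up to 2 per direction with at least 10 CPM. Some lower members are added for their role. The levels of 2 single marker genes are not reported here. The members, lists, rules and promoters shown were chosen with earlier results of these data known.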

Additional observations from a re-analysis of the deposited data

Results flagged for a closer look

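For 9 members described above, the difference between XX and XY changed with the stage by edgeR's interaction test over the 4 stages and all 24 libraries. Adjusted p was 5.21e-07 for Wnt6, whose sign turned after E11.5, 5.23e-06 for Wnt9a, whose XX excess was widest at E12.5, and 6.01e-08 for Wnt5a, which was higher in XX at E12.5 and E13.5. Among the Frizzleds it was 0.00126 for Fzd9, whose XY excess was widest at E13.5, and 0.000931 for Fzd1, which differed at E12.5. For the antagonists it was 4.52e-05 for Sfrp1, 1.44e-05 for Sfrp2 and 1.91e-08 for Sfrp4, and for the co-receptor Lrp5 it was 1.43e-06, with a gap from E13.5. The background share of genes with such an interaction was 70.1%.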

How the results depend on the processing

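Counts of called members moved by over 1.5 times as follows. With at least 10 counts required in every library, 17 members were tested, which by construction lowers the counts: 5, 13, 13 and 11 in the sex comparisons by stage, 12 and 2 at the first and last XX steps, 9, 1 and 5 at the XY steps, 16 over the XX stages, 12 over the XY stages and 13 for the interaction. With only the libraries compared, 7 were called at E11.5, 4, 10 and 10 at the XX steps, and 7 and 14 at the middle and last XY steps. The share of all genes called in those fits was not taken, and the cause was not tested. The first XX step gave 13 with limma on log2(TPM + 1) and 11 on log2(TPM + 0.1), and the last XX step 3 at an absolute log2 of at least 1. Leaving out 1 library gave 13 to 25 at the first XX step, 3 to 8 at the last XX step and 1 to 4 at the middle XY step, and Wnt7b at E11.5 turned to -0.64 without XX E11.5 replicate 1 (range -0.64 to 6.16). For single genes, 36 values lost the call under another setting, 4 gained it and 1312 kept direction and call; leaving out a library lost 11 calls, gained 5 and reversed 1. Removing GC and length trends, an alternative chosen after seeing the data (97.1% of genes matched), changed 1 call of a named gene, that of Lrp6 at E11.5 (-0.14, adjusted p = 0.239). The replicate numbers do not pair the libraries (median correlation 0.0029 over 84 same-numbered pairs, 15 over 0.1, 11 of 24 libraries closest to their own number); with the replicate block, 14, 25, 24 and 21 members were called in the sex comparisons, and among named genes it changed only the Sfrp1 call at E11.5. Depth limits statements on genes near 3 counts, such as Dkk1 and Dkk2 after E11.5. It also limits the size of fitted differences whose lower group had few counts. Among these were Fzd9 in XX E13.5 (6, 5 and 2 counts) and in XX E15.5 (0, 7 and 3). Sfrp4 in XX E15.5 (3, 4 and 5), Frzb in XX E15.5 (1, 4 and 3) and Wnt2b in XY E12.5 (5, 3 and 1) were others.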
